A study of Mus musculus with 9 samples.

Results

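The antioxidant, glutathione and thioredoxin genes were 35 genes chosen by symbol, with earlier results of these data known. Shares among them, set beside those of all genes, are thus a description. All 35 were found among the 56748 genes of the count table. They were measured by bulk RNA-seq in 9 libraries of mouse hematopoietic stem cells (HSCs), the cells of the bone marrow that renew themselves and give rise to all blood lineages. The cells were sorted in the SLAM gate for HSCs from female C57BL/6 mice, with no genetic change or treatment named for any group. The 3 groups, with 3 libraries each, were young HSCs (yHSCs) from mice of 6 to 10 weeks, and pre-aged HSCs (paHSCs) from mice of 14 to 16 months that were split by surface P-selectin (Selp) into Selp_low and Selp_high fractions. The comparisons address how the redox genes of the Selp-defined fractions differ from each other and from young HSCs. The study names the 3 libraries of a group biological replicates, and the number of animals behind a library is not stated.

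Reactive oxygen species arise from respiration and from oxidase enzymes, and cells remove them in steps. Superoxide dismutases turn superoxide into hydrogen peroxide. Catalase splits the peroxide into water and oxygen, while the glutathione peroxidases and the peroxiredoxins reduce it to water with electrons from carriers such as glutathione and thioredoxin. Glutathione reductase and the thioredoxin reductases restore these carriers with NADPH, and the transcription factor NFE2L2, held in check by KEAP1, drives many of the genes. HSCs are known to be kept in a low-oxidant state, and a rise in oxidants is known to push them out of quiescence.

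Library totals ranged from 24866975 to 35375310 counts. Levels are given as CPM, the counts scaled to library size with TMM factors, and a gene without counts may still lie at 0.0696 to 0.198 CPM depending on the library (3 counts, counting error only). All 12 HSC markers were counted in every library. Their sums were 1346 to 2812 CPM in yHSCs, 1052 to 1733 CPM in Selp_low and 2547 to 3539 CPM in Selp_high paHSCs. Every Selp_low library was thus below every Selp_high library in this sum. *Selp*, whose protein was the gate, stood at 652, 265 and 264 CPM in the Selp_high libraries and at 109, 29.3 and 93.3 CPM in the Selp_low libraries, without overlap. Markers of other cells were present. The 12 neutrophil markers summed to 5185, 479.8 and 208800 CPM in Selp_low replicates 1, 2 and 3, to 13220 to 65030 CPM in yHSCs and to 1520 to 41940 CPM in Selp_high paHSCs. The 10 plasma cell markers summed to 100900 CPM in Selp_low replicate 2, to 3667 CPM in Selp_high replicate 2 and to 376.9 to 882 CPM in the other libraries. In Selp_low replicate 2 the 10 most abundant genes took 44.8% of all counts, against 20.9% in Selp_low replicate 3 and 3.9% to 12.5% elsewhere. The T and NK cell markers were higher in every Selp_low library (490.2 to 1187 CPM) than in any other (100.5 to 177.7 CPM), and the megakaryocyte markers summed to 1623 to 8625 CPM in Selp_high paHSCs, 191.2 to 2197 CPM in Selp_low paHSCs and 133.9 to 215 CPM in yHSCs. B cell markers summed to 5963, 8292 and 56.08 CPM in Selp_low replicates 1, 2 and 3 and to 105.5 to 532.8 CPM elsewhere. Monocyte markers summed to 186.4 to 677.4 CPM over all libraries. Erythroid markers summed to 3334, 1538 and 1616 CPM in Selp_low and to 957.5, 874.3 and 1385 CPM in Selp_high replicates. Every Selp_low library was thus above every Selp_high library in the erythroid sum, which was 2800, 632.2 and 332.5 CPM in yHSCs. The part of these other markers in the differences between groups was not tested. In such bulk samples fewer cells of a type and less RNA per cell cannot be told apart.

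Most of the 35 genes were well expressed in these libraries, which also held markers of other cells. On the scale of CPM per kilobase of gene length (FPKM), which allows genes to be compared, 7 had a mean over the 9 libraries of at least 100, 22 lay between 10 and 100 and 6 below 10. The cytosolic thioredoxin *Txn1* led with a mean of 246 FPKM (range 143.5 to 537.7). It was followed by the peroxiredoxins *Prdx1* (186 FPKM) and *Prdx6* (169 FPKM) and by *Gpx4* (148 FPKM), the glutathione peroxidase that reduces lipid peroxides in membranes. The mitochondrial peroxiredoxins *Prdx5* and *Prdx3* had means of 119 and 102 FPKM, and the thioredoxin-binding protein *Txnip* one of 100.5 FPKM. *Prdx5* was at 441.3 FPKM in Selp_low replicate 3 and at 44.72 to 139.1 FPKM in the other libraries. At the lower end stood the glutathione synthetase *Gss* (6.33 FPKM), the mitochondrial glutaredoxin *Glrx2* (5.45 FPKM), the endoplasmic reticulum peroxidases *Gpx8* (7.10 FPKM) and *Gpx7* (4.93 FPKM), and the methionine sulfoxide reductase *Msrb3* (1.75 FPKM). The secreted superoxide dismutase *Sod3* was at 0.192 FPKM and had no count in yHSC replicate 2. For all 34 neighbouring pairs in this order the ranges over libraries overlapped.

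**Figure D1:**
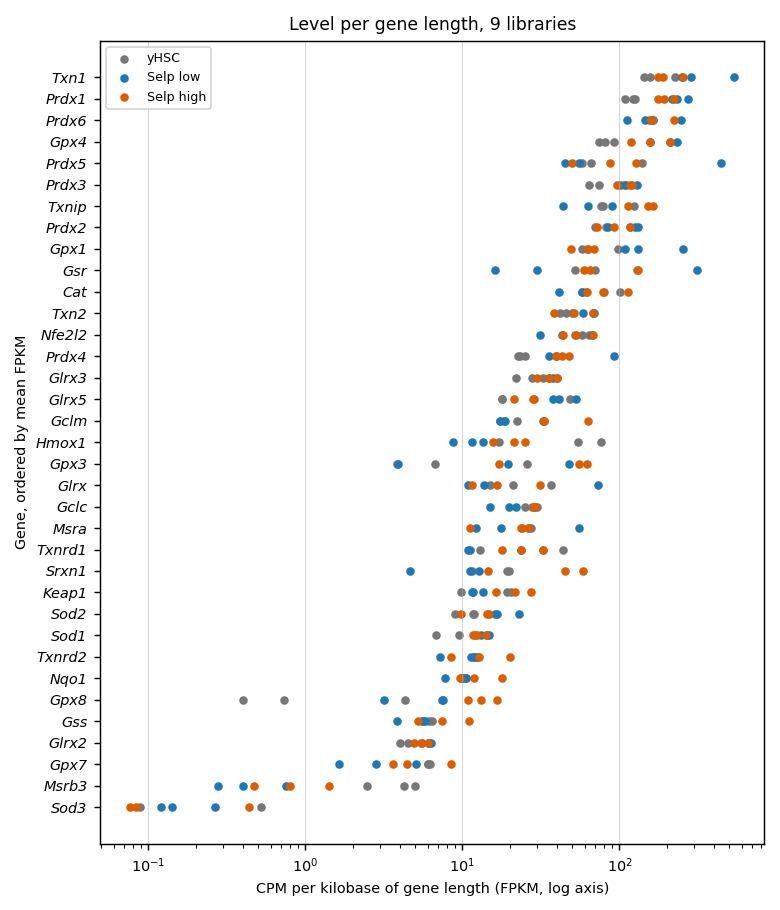
Level of each of the 35 genes on a log axis of CPM per kilobase of gene length (FPKM), with a point for each of the 9 libraries, coloured by group, and genes ordered by their mean. *Txn1* (mean 246 FPKM) and *Prdx1* (186 FPKM) lie at the top and *Sod3* (0.192 FPKM) at the bottom, where its library without counts is not drawn.

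The genes differed in how much they varied. The ratio of the highest to the lowest library had a median of 3.15, was under 2 for 5 genes (*Prdx2*, *Txn2*, *Glrx2*, *Glrx3* and *Gclc*) and over 5 for 11. *Glrx2* was the steadiest, between 35.3 and 55.0 CPM. *Gpx8*, which acts on peroxide in the endoplasmic reticulum, spanned 0.417 to 17.4 CPM, the widest ratio, 41.7, among genes counted in every library. *Gsr*, the glutathione reductase, spanned 44.2 to 856 CPM. Selp_low replicate 3 held the highest of the 9 levels for 14 of the 35 genes, while Selp_low replicate 2 held the lowest for 12 and yHSC replicate 2 for 11.

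**Figure D2:**
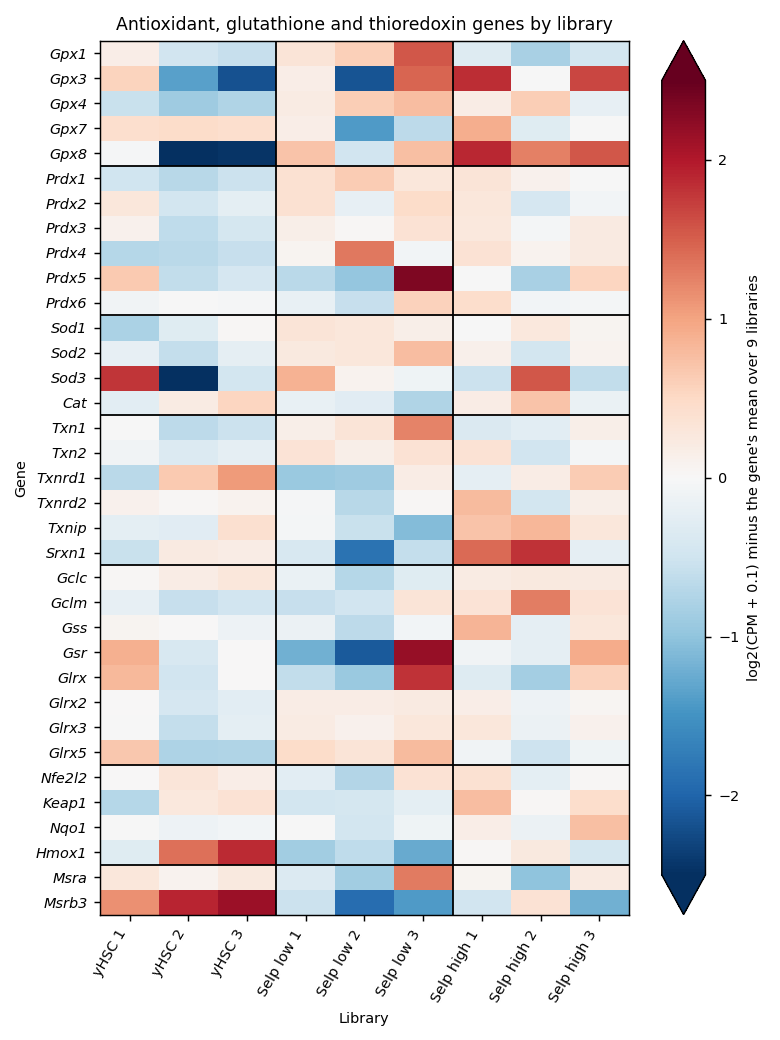
Heat map of the 35 genes (rows, in blocks by role) in the 9 libraries (columns), coloured by log2(CPM + 0.1) minus the mean of the gene over the libraries. *Msrb3* is red in the 3 yHSC libraries and *Gpx8* in the 3 Selp_high libraries, while *Prdx5*, *Gsr* and *Glrx* are reddest in Selp_low replicate 3.

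Between the Selp_high and Selp_low fractions of paHSCs, the glutathione peroxidase *Gpx1*, the iron-sulfur cluster glutaredoxin *Glrx5*, *Sod2* and *Glrx2* were lower in every Selp_high library. *Srxn1*, *Txnip*, *Keap1*, *Hmox1*, *Gpx8*, *Gclc*, *Gclm* and *Cat* were higher in every Selp_high library. None of these differences passed the test after adjustment. A gene was called at an adjusted p of 0.05 or less and a log2 fold change of 1 or more in either direction, by edgeR's quasi-likelihood test, and 0 of the 35 genes were called, as were 0 of all 20370 genes tested (0%). At an unadjusted p below 0.05, 6 of the 35 were higher in Selp_high paHSCs (17.1%, against 6.88% of all genes) and 2 were lower (5.71%, against 5.67%). The libraries of both groups were apart with Selp_high above for 8 genes (22.9%, against 10.3% of all genes) and with Selp_high below for 4 (11.4%, against 10.7%). The median log2 fold change was 0.10 over the 35 genes and -0.11 over all genes, and that of the 35 was -0.08 without Selp_high replicate 1 and 0.52 without Selp_low replicate 3. DESeq2, the tool of the study, called 0 of the 34 genes that it gave an adjusted p, against 2.28% of the 25807 genes with one, and it gave none for *Gsr*. Selp_high and Selp_low libraries with the same replicate number deviated together from their group means. Whether they share mice is not stated, so the numbers are pairs by assumption. In both fractions replicate 2 had the highest plasma cell sum and replicate 3 the highest neutrophil sum, and the part of this in the shared deviation was not tested. With the replicate number as a block edgeR gave an unadjusted p below 0.05 for 13 genes, against 18% of all genes, and called 0. DESeq2 with that block, an alternative chosen after seeing the data, called 5 of the 35 (*Gpx1*, *Gpx3*, *Gpx8*, *Srxn1* and *Txnip*) and 4.94% of all 43523 genes with counts, of which it called 1.35% without the block.

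Among the peroxidases, *Gpx1* (chromosome 9, 108216102 to 108217542, plus strand, mm39), the abundant selenoenzyme that reduces hydrogen peroxide in the cytosol and mitochondria, was at 156, 188 and 365 CPM in Selp_low paHSCs and at 99.1, 70.4 and 90.4 CPM in Selp_high paHSCs. All 3 Selp_low libraries lay above all 3 Selp_high libraries, and yHSCs (140.2, 89.0 and 83.6 CPM) lay with the Selp_high libraries apart from yHSC replicate 1. The level was 2.74-fold lower in Selp_high paHSCs, with a log2 fold change of -1.45 (SE 0.37, adjusted p = 0.338). Leaving out each library in turn gave values between -1.65 and -0.995. Across 17 alternatives the adjusted p of *Gpx1* ran from 0.00212, by DESeq2 with the replicate block, to 1. *Gpx8* (chromosome 13, 113179287 to 113182944, minus strand, mm39) went the other way, with 17.4, 11.3 and 13.8 CPM in Selp_high and 7.72, 3.30 and 7.84 CPM in Selp_low libraries, a log2 fold change of 1.16 (SE 0.44, adjusted p = 0.366). *Gpx3*, a secreted peroxidase, overlapped between the fractions, at 113, 31.2 and 100.7 CPM in Selp_high and 35.2, 6.997 and 86.9 CPM in Selp_low paHSCs. Each Selp_high library was above the Selp_low library of its own number, and the log2 fold change was 0.92 without the block and 1.34 with it.

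The thioredoxin branch held the largest fold change of the 35 genes between the fractions. Sulfiredoxin *Srxn1* (chromosome 2, 151947436 to 151953296, plus strand, mm39), which restores overoxidized peroxiredoxins, was at 127, 165 and 40.7 CPM in Selp_high and at 35.8, 13.1 and 31.4 CPM in Selp_low paHSCs. Selp_high replicate 3 lay close to the highest Selp_low library, and the other two stood far above. The level was 4.12-fold higher in Selp_high paHSCs, with a log2 fold change of 2.04 (SE 0.60, adjusted p = 0.338), between 1.64 and 2.44 with each library left out. Its adjusted p was 0.00561 to 1 across 17 alternatives, the lowest by DESeq2 with the replicate block. *Txnip* (chromosome 3, 96465273 to 96469199, plus strand, mm39), which binds reduced thioredoxin and restrains glucose uptake, was at 477, 513 and 354 CPM in Selp_high and at 281, 197 and 136 CPM in Selp_low paHSCs. Its log2 fold change was 1.12 (SE 0.35, adjusted p = 0.338), and the yHSC libraries, at 244, 237 and 385 CPM, overlapped with both fractions. Thioredoxin itself (*Txn1*) was at 185, 198 and 266 CPM in Selp_high and at 263, 299 and 565 CPM in Selp_low libraries. The groups overlapped, while each Selp_high library was below the Selp_low library of its own number (unadjusted p = 0.0645 in edgeR's test and 0.0208 with the replicate block, adjusted p = 0.199). Its reductase *Txnrd1* was at 126, 167 and 230 CPM in Selp_high and at 76.8, 79.1 and 167 CPM in Selp_low libraries. Each Selp_high library was above the Selp_low library of its own number (unadjusted p = 0.126 in edgeR's test and 0.0158 with the replicate block, adjusted p = 0.18). The mitochondrial *Txn2* and *Txnrd2* overlapped between the fractions as well.

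In the glutathione branch, *Gclc*, the catalytic subunit of the ligase that sets the rate of glutathione synthesis, was at 107, 109.5 and 107 CPM in Selp_high and at 82.6, 56.2 and 74.5 CPM in Selp_low paHSCs. The Selp_high libraries were almost equal and all above the Selp_low libraries, with a log2 fold change of 0.59 (SE 0.23, adjusted p = 0.380). Its modifier subunit *Gclm* was at 207, 397 and 207 CPM against 109.5, 117 and 204 CPM, so that Selp_low replicate 3 nearly reached the Selp_high libraries. *Glrx5*, which works in the assembly of iron-sulfur clusters in mitochondria, was at 104.5, 78.1 and 104 CPM in Selp_high and at 152.5, 139 and 193 CPM in Selp_low libraries. Its log2 fold change of -0.77 (SE 0.25, adjusted p = 0.338) kept its direction with each library left out (-0.83 to -0.62). *Glrx2* was also lower in each Selp_high library, by a small margin (43.4 to 52.8 CPM against 53.6 to 55.0 CPM), while *Glrx3* and *Gss* overlapped. The synthetase *Gss* was at 65.0, 31.0 and 44.0 CPM in Selp_high and 32.6, 22.7 and 34.2 CPM in Selp_low libraries. It was higher in each Selp_high library than in the Selp_low library of its own number (unadjusted p = 0.104 in edgeR's test and 0.0396 with the replicate block, adjusted p = 0.254).

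**Figure D3:**
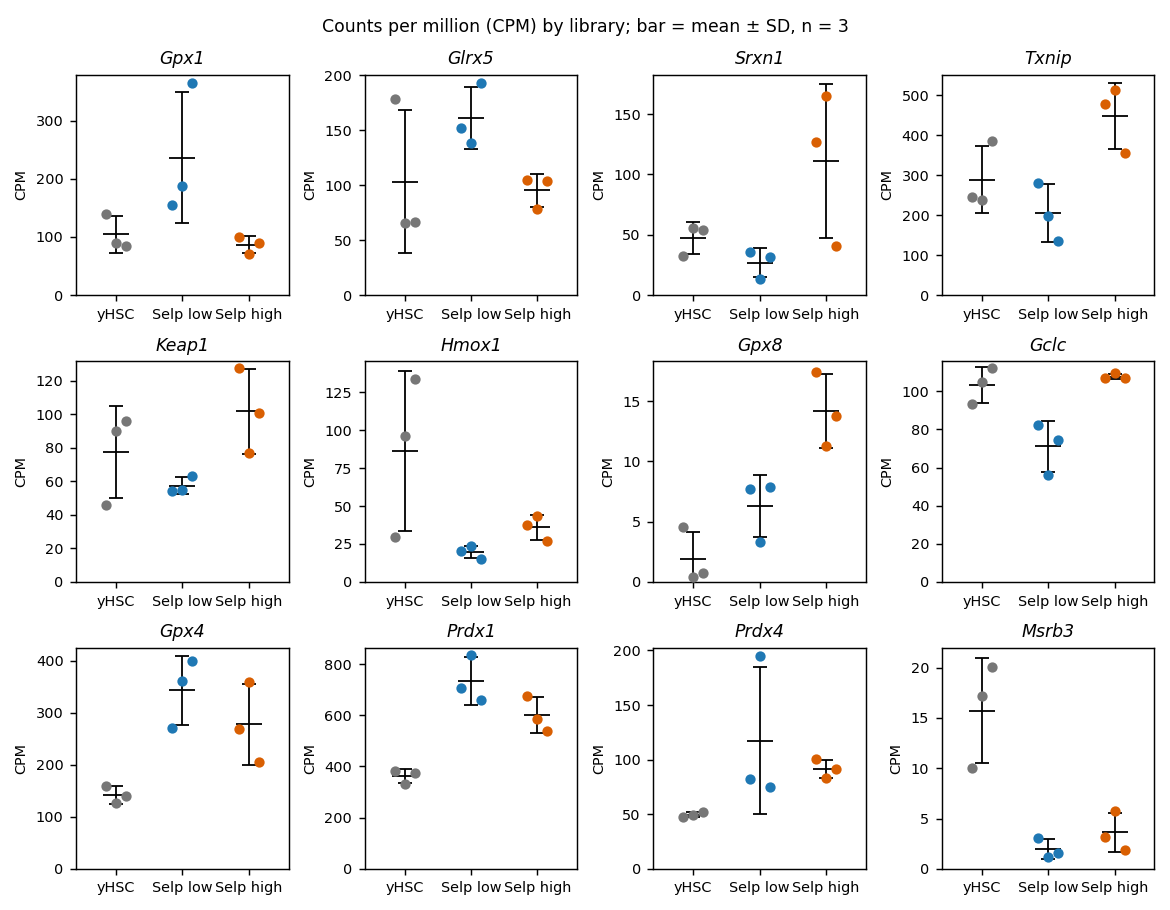
CPM of 12 genes in each library of yHSCs, Selp_low and Selp_high paHSCs, with the mean and SD of 3 libraries. *Gpx1* and *Glrx5* lie lower in all Selp_high than in all Selp_low libraries, *Srxn1*, *Txnip*, *Keap1*, *Hmox1*, *Gpx8* and *Gclc* lie higher, and *Msrb3* lies higher in yHSCs than in either paHSC fraction.

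Of the NFE2L2 axis, the factor *Nfe2l2* itself overlapped between the fractions, at 257, 166 and 201 CPM in Selp_high and 164, 117.5 and 253 CPM in Selp_low paHSCs. *Keap1*, which marks NFE2L2 for degradation, was at 127, 76.9 and 101 CPM in Selp_high and at 54.3, 54.9 and 63.1 CPM in Selp_low libraries, a log2 fold change of 0.82 (SE 0.26, adjusted p = 0.338). *Hmox1* (chromosome 8, 75820249 to 75827217, plus strand, mm39), the heme oxygenase that breaks down heme, was at 37.4, 43.5 and 27.2 CPM against 20.1, 23.6 and 15.2 CPM. Its libraries did not overlap, with a log2 fold change of 0.87 (SE 0.31, adjusted p = 0.354), and both fractions lay below yHSC replicates 2 and 3 (95.9 and 134 CPM). The quinone reductase *Nqo1* overlapped at 14.9 to 27.9 CPM and 12.01 to 16.3 CPM.

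Because NFE2L2 acts through the antioxidant response element, the core of that element was read in the promoters of the set to show which genes hold it near their start. The core was taken as TGACNNNGC on either strand, in the RefSeq promoter windows of 300 bases (250 before and 50 after the start, GRCm38.p6, a build other than that of the counts). A window was found for 29 of the 35 genes, not for *Prdx6*, *Sod3*, *Gclc*, *Gsr*, *Hmox1* and *Msra*. Some genes had several windows, and a gene counted as holding the core if any of its windows did. By this rule 6 of the 29 held it (20.7%), against 14% of the 27025 genes with a window (3781 genes). *Txnrd1* also had windows at other starts without the core. The stretches of 30 bases around the core are given 5′ to 3′ along the strand of the gene, with the core in capitals.
Prdx1 (chr4:116685456-116685485, plus strand): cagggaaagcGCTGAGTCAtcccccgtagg
Sod1 (chr16:90220696-90220725, plus strand): gccaaggtggGCGTGGTCAgactcaggcct
Txnrd1 (chr10:82859104-82859133, plus strand): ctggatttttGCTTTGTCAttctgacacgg
Gclm (chr3:122245413-122245442, plus strand): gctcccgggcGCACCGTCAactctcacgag
Srxn1 (chr2:152105542-152105571, plus strand): gcagtgggcaGCTAGGTCAgagtgagacac
Nfe2l2 (chr2:75704884-75704913, minus strand): tcagcccaccTGACTCCGCcatgccccgga
The core began 133, 56, 92 and 134 bases before the start in *Prdx1*, *Sod1*, *Txnrd1* and *Gclm* and 240 bases before it in *Nfe2l2*, and 28 bases after it in *Srxn1*. A match of letters is a description and not a site of binding. These 6 genes did not share a direction between the fractions. The log2 fold changes in Selp_high over Selp_low paHSCs were 2.04 for *Srxn1*, 0.91 for *Gclm*, 0.69 for *Txnrd1*, 0.22 for *Nfe2l2*, -0.15 for *Sod1* and -0.30 for *Prdx1*.

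Most of the remaining peroxidases and dismutases did not separate the fractions. *Gpx4*, *Prdx1*, *Prdx2*, *Prdx3*, *Prdx4*, *Prdx6*, *Gpx7*, *Sod1* and *Sod3* overlapped. *Sod2*, the manganese dismutase of mitochondria, was lower in each Selp_high library (148, 98.2 and 144 CPM) than in any Selp_low library (161, 165.5 and 231 CPM), with an unadjusted p of 0.105 in edgeR's test. Catalase (*Cat*) was higher, at 205.5, 296 and 162 CPM in Selp_high and 159, 149.8 and 108 CPM in Selp_low paHSCs, with an unadjusted p of 0.0757 in edgeR's test.

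**Figure D4:**
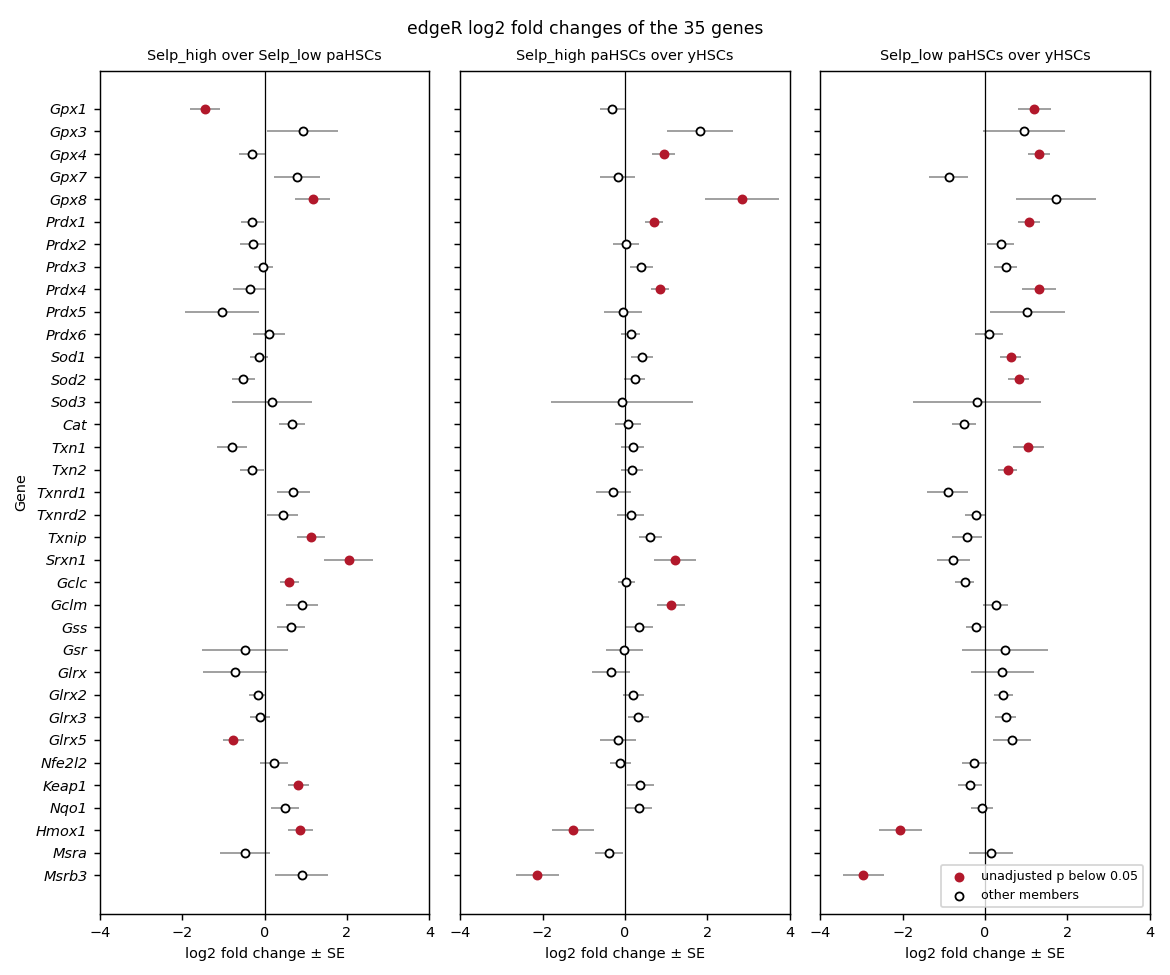
Log2 fold changes with SE from edgeR for the 35 genes (rows, by role) in the 3 comparisons of 3 against 3 libraries, with filled points at an unadjusted p below 0.05. In Selp_high over Selp_low paHSCs *Srxn1* lies farthest to the right (2.04) and *Gpx1* farthest to the left (-1.45), and *Msrb3* lies farthest to the left in both comparisons with yHSCs (-2.13 and -2.96).

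The direction between the fractions depended on which redox genes were counted. The study drew 18 antioxidant genes as a heat map, of which 17 are among the 35 and *Gpx5* is not. How the 18 were chosen is not stated, and the heat map shows these same libraries, so the counts below are a description. In Selp_high over Selp_low paHSCs 14 of these 18 genes had a negative and 4 a positive log2 fold change, with a median of -0.295. Of the 18 genes of the set outside that list, 14 had a positive and 4 a negative value, with a median of 0.615. The median over all genes was -0.11. Without Selp_low replicate 3, the library with the highest neutrophil sum, the heat map list had 11 negative and 7 positive values (median -0.17) and the other 18 genes 3 negative and 15 positive (median 0.67). The genes outside the heat map list were the thioredoxins and their reductases, *Txnip*, *Srxn1*, *Cat*, *Prdx6*, *Sod3*, the enzymes of glutathione synthesis and reduction, *Keap1*, *Nqo1*, *Hmox1* and the methionine sulfoxide reductases.

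Against young HSCs, the Selp_low fraction had higher levels of several peroxidases and lower levels of *Msrb3* and *Hmox1*. This comparison shares its Selp_low libraries with the one above. In edgeR 0 of 35 genes were called, as were 0 of 20437 genes (0%). At an unadjusted p below 0.05, 8 of the 35 were higher in Selp_low paHSCs (22.9%, against 7.11% of all genes) and 2 lower (5.71%, against 4.17%). The libraries were apart for 10 genes with Selp_low above (28.6%, against 9.59%) and for 5 with Selp_low below (14.3%, against 6.76%). DESeq2 called 3 of the 33 genes it gave an adjusted p (*Msrb3*, *Gpx4* and *Hmox1*), against 2.95% of the 17508 genes with one, and it gave none for *Prdx5* and *Gsr*. The median log2 fold change over the 35 genes was 0.38, against 0.08 over all genes, and it turned to -0.16 without Selp_low replicate 3.

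*Msrb3* (chromosome 10, 120617001 to 120735006, minus strand, mm39), which repairs oxidized methionine, was at 9.98, 17.1 and 20.1 CPM in yHSCs and at 3.05, 1.12 and 1.61 CPM in Selp_low paHSCs. Every Selp_low library was below every yHSC library, 7.76-fold on average, with a log2 fold change of -2.96 (SE 0.51, adjusted p = 0.332 in edgeR and 7.7e-05 in DESeq2). Across 17 alternatives the adjusted p of *Msrb3* ran from 6e-06, by DESeq2 on the genes of the edgeR filter, to 0.981. That alternative was chosen after seeing the data. *Hmox1* was at 29.8, 95.9 and 134 CPM in yHSCs and at 15.2 to 23.6 CPM in Selp_low paHSCs, a log2 fold change of -2.06 (SE 0.52, adjusted p = 0.332 in edgeR and 0.024 in DESeq2, 0.00611 to 1 across 17 alternatives). The lowest adjusted p of *Hmox1* likewise came from an alternative chosen after seeing the data. The yHSC libraries differed widely, with replicate 1 close to the Selp_low libraries.

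*Gpx4* (chromosome 10, 79883000 to 79892273, plus strand, mm39) was at 160, 127 and 139 CPM in yHSCs and at 270.5, 361 and 400 CPM in Selp_low paHSCs. The groups were apart, with a log2 fold change of 1.31 (SE 0.26, adjusted p = 0.332 in edgeR and 0.0489 in DESeq2, 0.00121 to 0.981 across 17 alternatives). The lowest of these values came from DESeq2 on the genes of the edgeR filter, chosen after seeing the data. A row for its pseudogene *Gpx4-ps2* held 908 to 3062 counts against 4714 to 14564 for *Gpx4*, so reads could have been split between them. *Prdx1* (chromosome 4, 116542741 to 116558019, plus strand, mm39), the abundant cytosolic peroxiredoxin, was at 382, 332 and 373 CPM in yHSCs and at 706, 836.5 and 658 CPM in Selp_low paHSCs, a log2 fold change of 1.06 (SE 0.26, adjusted p = 0.332). Both genes showed little spread within yHSCs beside the distance between the groups.

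*Prdx4*, the peroxiredoxin of the endoplasmic reticulum, was at 47.6, 49.0 and 52.4 CPM in yHSCs and at 82.5, 195 and 75.1 CPM in Selp_low paHSCs, a log2 fold change of 1.30 (SE 0.41, adjusted p = 0.344). Its highest value was in Selp_low replicate 2, the library with the highest plasma cell sum, and without that library the log2 fold change was 0.67. *Sod2* was at 118, 90.05 and 116 CPM in yHSCs, below all Selp_low libraries, with a log2 fold change of 0.82 (SE 0.25, adjusted p = 0.339). *Gpx1*, *Txn1*, *Sod1*, *Txn2*, *Glrx2* and *Glrx3* were likewise higher in each Selp_low library than in any yHSC library. The ranges were 83.6 to 140.2 against 156 to 365 CPM for *Gpx1*, 151 to 236 against 263 to 565 CPM for *Txn1*, 26.9 to 48.0 against 51.8 to 58.2 CPM for *Sod1* and 175 to 209.9 against 246 to 289 CPM for *Txn2*. *Gclc*, *Gpx7* and *Txnrd2* were lower in each Selp_low library than in any yHSC library, at 56.2 to 82.6, 2.11 to 6.53 and 31.6 to 52.0 CPM.

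The Selp_high fraction, compared with the same yHSC libraries, had some of these differences and not others. In edgeR 0 of the 35 genes were called and 0.165% of all 20017 genes. At an unadjusted p below 0.05, 6 genes were higher in Selp_high paHSCs (17.1%, against 4.48% of all genes) and 2 lower (5.71%, against 3.11%). The libraries were apart for 5 genes with Selp_high above (14.3%, against 8.53%) and for 1 with Selp_high below (2.86%, against 5.28%). DESeq2 called 2 of the 35 (*Msrb3* and *Gpx8*), against 2.78% of the 21436 genes with an adjusted p. The median log2 fold change was 0.17 over the 35 genes and -0.03 over all genes.

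*Msrb3* was at 3.21, 5.75 and 1.89 CPM in Selp_high paHSCs, below all yHSC libraries, with a log2 fold change of -2.13 (SE 0.51, adjusted p = 0.249 in edgeR and 0.0039 in DESeq2, 0.00193 to 1 across 16 alternatives). *Gpx8* was at 4.51, 0.417 and 0.766 CPM in yHSCs, and all Selp_high libraries (11.3 to 17.4 CPM) lay above. Its log2 fold change was 2.84 (SE 0.90, adjusted p = 0.432 in edgeR and 0.0429 in DESeq2, 2.1e-05 to 1 across 16 alternatives). For *Msrb3* and *Gpx8* the lowest of these values came from DESeq2 with the replicate block, chosen after seeing the data. Libraries with the same number did not deviate together in this comparison, so that block has no ground here. When single libraries were omitted the value of *Gpx8* lay between 2.39 and 4.58, the latter without yHSC replicate 1.

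*Prdx4* was at 100.1, 83.4 and 91.1 CPM in Selp_high paHSCs, all above yHSCs, with a log2 fold change of 0.85 (SE 0.21, adjusted p = 0.271). *Gpx4*, at 269, 360 and 205 CPM, and *Prdx1*, at 676, 585 and 538 CPM, were above yHSCs too, with log2 fold changes of 0.94 (SE 0.29, adjusted p = 0.403) and 0.70 (SE 0.22, adjusted p = 0.433). *Gclm* had a log2 fold change of 1.12 (SE 0.34, adjusted p = 0.393), with yHSCs at 140.5, 110 and 116 CPM. These 4 genes and *Gpx8* were the 5 whose Selp_high libraries were all above the yHSC libraries. *Srxn1* and *Hmox1* overlapped with yHSCs, where *Srxn1* was at 32.2, 55.6 and 53.9 CPM. *Gpx1* was near the yHSC level, with a log2 fold change of -0.31 in Selp_high and 1.20 in Selp_low paHSCs against the same yHSC libraries.

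Some of the 35 genes followed the neutrophil markers of a library. *Glrx*, the cytosolic glutaredoxin, was at 75.0, 59.9 and 402 CPM in Selp_low replicates 1, 2 and 3, in the order of the neutrophil sums given above. *Gsr* was at 82.3, 44.2 and 856 CPM, *Prdx5* at 117.5, 95.7 and 944 CPM and *Msra* at 75.6, 52.4 and 238 CPM in the same libraries. All 4 were highest in Selp_low replicate 3. Over the 9 libraries the Pearson correlation of log2 level with log2 neutrophil sum was 0.928 for *Glrx*, 0.935 for *Msra*, 0.907 for *Gsr* and 0.858 for *Prdx5*. Adjusted over 70 relations, the exact permutation p was 0.00598, 0.00598, 0.0249 and 0.0249. Spearman's rho was 0.983, 0.967, 0.9 and 0.95, with adjusted exact permutation p of 0.00347, 0.00579, 0.0355 and 0.00823. Without Selp_low replicates 2 and 3, the libraries farthest from the median sum, r was 0.938, 0.879, 0.716 and 0.812, and after removal of the group means it was 0.958, 0.944, 0.953 and 0.944. These 4 were the only relations of the 70 past an adjusted p of 0.05 by Pearson's r. The other genes of the table were not related to these sums, so whether the 4 stand out among all genes was not tested. After removal of the group means, r with the neutrophil sum was also 0.852 for *Gpx3*, 0.835 for *Txn1*, 0.765 for *Gpx1* and 0.765 for *Sod2*, whose r over the 9 libraries without that step was 0.488, 0.354, 0.316 and 0.244. After the same step r was 0.751 for *Nfe2l2*, 0.731 for *Prdx6* and -0.74 for *Cat*. *Gpx1*, *Txn1* and *Sod2* were each highest in Selp_low replicate 3. The log2 fold changes in Selp_high over Selp_low paHSCs were -0.72 for *Glrx*, -0.48 for *Msra*, -0.47 for *Gsr* and -1.03 for *Prdx5*, and all 4 turned positive without Selp_low replicate 3 (0.68, 0.44, 1.89 and 0.82). That of *Gsr* was 0.63 with the replicate block. For *Prdx4* and the plasma cell sum r was 0.837 and rho 0.833 (adjusted exact permutation p = 0.102 and 0.0965), and r was 0.799 without Selp_low replicate 2 and Selp_high replicate 2. The part of other cells in these levels was not tested beyond these relations. Relations of the genes with the erythroid sum and the remaining marker sums were not tested.

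**Figure D5:**
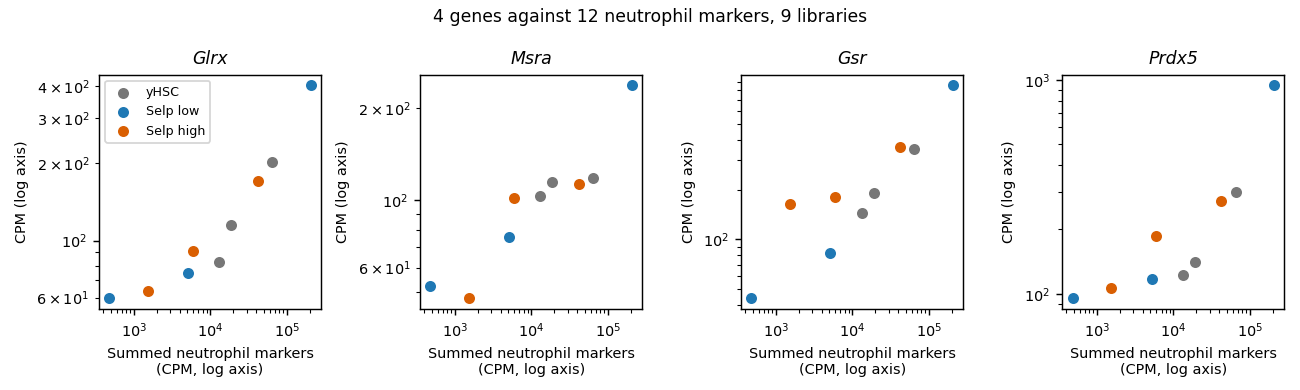
CPM of *Glrx*, *Msra*, *Gsr* and *Prdx5* (y, log axis) against the summed CPM of 12 neutrophil markers (x, log axis) in 9 libraries, coloured by group. All 4 genes are highest in Selp_low replicate 3 (208800 CPM of markers) and, except *Msra*, lowest in Selp_low replicate 2 (479.8 CPM), with Pearson correlations of 0.928, 0.935, 0.907 and 0.858.

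Other genes of the same chemistry gave the setting for the 35. The lists below were written from general knowledge, and edgeR called 0 of their genes in all 3 comparisons. Between the fractions DESeq2 called *Gsta2*, *Aldh1l1*, *Cyba* and *Gpx6*, each from another list of 15 to 29 genes tested, against 2.28% of all genes with an adjusted p. In Selp_high paHSCs over yHSCs it called 4 of 21 glutathione S-transferases and 1 gene of each other list except NADPH supply, with 0 (against 2.78% of all genes). In Selp_low paHSCs over yHSCs it called 1 glutathione S-transferase, 1 other redox gene and 1 selenoprotein gene, and 0 in the remaining lists (against 2.95%). Of 24 glutathione S-transferases, which join glutathione to reactive compounds, 21 were tested between the fractions, with 4 higher and 2 lower in Selp_high paHSCs at an unadjusted p below 0.05 (against 6.88% and 5.67% of all genes). *Gsta2* was at 2.56, 12.4 and 1.26 CPM in Selp_high and at 0.131, 0.660 and 0.263 CPM in Selp_low libraries, without overlap, with a log2 fold change of 3.98 (SE 1.12, adjusted p = 0.338 in edgeR and 0.00667 in DESeq2). *Gstm2* was at 73.5, 41.4 and 44.4 CPM in Selp_high, 28.1, 8.25 and 19.2 CPM in Selp_low and 5.23, 1.48 and 2.16 CPM in yHSC libraries. These 3 groups did not overlap, and its log2 fold change was 1.51 between the fractions (adjusted p = 0.338 in edgeR) and 4.12 in Selp_high paHSCs over yHSCs (adjusted p = 0.0713 in edgeR and 8.53e-10 in DESeq2). *Gstt1* was higher in Selp_high as well (52.5, 29.5 and 27.8 CPM against 19.8, 13.4 and 14.7 CPM). Against yHSCs the counts of this list were 5 higher and 1 lower of 21 tested for Selp_high (against 4.48% and 3.11% of all genes) and 3 higher and 1 lower of 20 for Selp_low paHSCs (against 7.11% and 4.17%).

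Of 15 genes of NADPH supply, 3 were higher and 0 lower in Selp_high over Selp_low paHSCs at an unadjusted p below 0.05 (*Aldh1l1*, *Me1* and *Nadk2*), against 6.88% and 5.67% of all genes. *Aldh1l1*, a folate enzyme that makes NADPH, was at 53.2, 38.6 and 31.6 CPM in Selp_high and 14.4, 7.26 and 12.5 CPM in Selp_low libraries. Its log2 fold change was 1.85 (SE 0.37, adjusted p = 0.338 in edgeR and 0.0183 in DESeq2). Against yHSCs this list had 2 higher and 0 lower for Selp_high (against 4.48% and 3.11% of all genes) and 1 higher and 0 lower for Selp_low paHSCs (against 7.11% and 4.17%). Of 24 partners and targets of NFE2L2, 1 was higher and 2 lower in Selp_high paHSCs (against the same 6.88% and 5.67%), the lower ones being the biliverdin reductase *Blvrb* (62.1 to 90.2 against 152 to 202 CPM) and the ubiquitin ligase subunit *Rbx1*. Against yHSCs 2 of these 24 were higher and 2 lower for each fraction, beside the shares just given.

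Among 25 NADPH oxidases and other oxidant sources, 20 were tested between the fractions, with 1 higher and 2 lower in Selp_high paHSCs (against 6.88% and 5.67% of all genes). The oxidase subunit *Cyba*, which phagocytes also express, was at 214, 176 and 343 CPM in Selp_high and at 529, 943 and 1379 CPM in Selp_low libraries, a log2 fold change of -1.97 (SE 0.46, adjusted p = 0.338 in edgeR and 0.0177 in DESeq2). Its highest level was in Selp_low replicate 3, the library with the highest neutrophil sum. Its next highest was in Selp_low replicate 2, the library with the lowest neutrophil sum. The part of other cells in its level was not tested. Of the 19 tested against yHSCs, 1 was higher and 0 lower for Selp_high (against 4.48% and 3.11% of all genes) and 2 higher and 0 lower for Selp_low paHSCs (against 7.11% and 4.17%). Of 31 other thioredoxin-fold, repair and redox genes, 29 were tested, with 4 higher and 1 lower in Selp_high over Selp_low paHSCs (against the same 6.88% and 5.67%). Among the higher ones was the sestrin *Sesn2*, at 20.7 to 26.03 against 9.77 to 13.4 CPM. The lower one was *Gpx6*, with 0 counts in the Selp_high and 0.394 to 0.924 CPM in the Selp_low libraries. The metallothionein *Mt1* was at 39.1, 12.6 and 16.1 CPM in yHSCs, at 101, 186 and 203 CPM in Selp_low and at 175, 81.2 and 133 CPM in Selp_high paHSCs. Both fractions were above all yHSC libraries, with log2 fold changes of 2.87 and 2.47 (adjusted p = 0.332 and 0.185 in edgeR, 0.00123 and 0.00135 in DESeq2). Of these genes, 5 were higher and 0 lower of 28 tested for Selp_high paHSCs over yHSCs, and 6 higher and 4 lower of 29 for Selp_low paHSCs over yHSCs, beside the same shares of all genes.

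The 19 genes of selenoproteins and selenocysteine insertion, the machinery that *Gpx1*, *Gpx3* and *Gpx4* depend on, had 2 higher and 3 lower in Selp_high over Selp_low paHSCs (against 6.88% and 5.67% of all genes). *Selenoh* was at 46.9, 42.5 and 41.4 CPM in Selp_high and at 80.1, 74.2 and 101 CPM in Selp_low libraries, a log2 fold change of -0.97 (SE 0.23, adjusted p = 0.338 in edgeR). *Selenom*, of the endoplasmic reticulum, was at 13.6, 7.19 and 7.88 CPM in yHSCs and above that in all paHSC libraries, at 23.1 to 36.0 CPM in Selp_low and 39.4 to 68.1 CPM in Selp_high. Its log2 fold change in Selp_high paHSCs over yHSCs was 2.34 (SE 0.41, adjusted p = 0.117 in edgeR and 7.39e-05 in DESeq2). Against yHSCs 1 was higher and 0 lower for Selp_high (against 4.48% and 3.11% of all genes) and 6 higher and 0 lower for Selp_low paHSCs (against 7.11% and 4.17%).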

How the data were processed

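Per the labels and the methods of the study, total RNA of sorted HSCs was turned into cDNA with a kit for ultra-low input, and reads were trimmed with fastp, aligned with HISAT2 (2.2.1) and assigned to genes with featureCounts (2.0.6). The submitters' processing notes name mm39, and the positions of genes are those of the table. The authors deposited raw read counts per gene, without normalization, beside gene lengths (another value, in bases). Neither the strand setting nor the annotation release nor the handling of multi-mapping reads is given in the sources used here, so reads of overlapping or antisense genes and of near-identical copies (7 pseudogene rows of these genes were found) cannot be told apart. The file held 0 columns of samples that were not used. The 9 libraries correlated at 0.8386 to 0.9538 on log2 CPM, so none was a copy of another.

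The members and gene lists were chosen with earlier results of these data known. Counts were analysed in R 4.3.3 with edgeR 4.0.16 (TMM factors, filterByExpr, quasi-likelihood test with the legacy setting), 2 groups of 3 libraries at a time, with Benjamini-Hochberg adjustment over all genes tested. SE is the log2 fold change divided by the square root of the F statistic. Alternatives were RLE factors, DESeq2 1.42.0, no low-count filter, a filter on a mean of 10 counts, limma 3.58.1 with voom quality weights, edgeR's newer setting, 1 fit of all 9 libraries, a replicate block, no minimum fold and each library left out. CPM used the TMM factors, and FPKM is CPM per kilobase of the deposited gene length. Fold changes with SE and adjusted p are given for the 8 members with the smallest p between the fractions and the 6 with the smallest in each comparison with yHSCs, and at most 3 genes of each list. Other members are given with their levels and, where a passage turns on them, their log2 fold change, chosen after their values were seen.

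Residuals of libraries with the same number correlated at 0.1776, 0.2765 and 0.3031 between the paHSC fractions, each above 0.1, so these numbers were taken as pairs, although the study names the samples independent. With yHSCs they did not (-0.4172 to 0.0917). Correlations used log2(CPM + 0.1), 362880 permutations and 35 genes against 2 marker lists, in Python 3.11.15. The main edgeR fit, DESeq2 and the edgeR replicate block were tested on simulated counts, and the motif search and the permutation on short made-up inputs. The simulated libraries were independent, with the same dispersion for all genes and no admixed cells. The tests thus do not show how the steps behave on libraries with the spread seen here.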

Additional observations from a re-analysis of the deposited data

How the results depend on the processing

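For the 20 gene results with a printed test, 303 of 334 alternative values kept both direction and call. Another 31 kept the direction and were newly called, 0 lost a call and 0 turned direction. The main edgeR fit called 0 of these results, so no call could be lost. They were picked for the smallest p in that same fit, so their steady direction cannot speak for genes outside the selection. Between the fractions *Glrx*, *Msra*, *Gsr* and *Prdx5*, which were not picked, turned from negative to positive without Selp_low replicate 3. Of the counts of called genes, 0 under edgeR in each comparison, the alternatives gave other values as follows. Between the fractions, 2 genes were called by DESeq2 on the genes of the edgeR filter (3.93% of all genes) and 5 by DESeq2 with the replicate block (4.94%). In Selp_high paHSCs over yHSCs, 2 were called by DESeq2 (1.44% of all genes with counts), by DESeq2 on the genes of the edgeR filter (2.97%), by voom quality weights (1.37%) and without a low-count filter (1.14%), and 3 by DESeq2 with the replicate block (1.55%). In Selp_low paHSCs over yHSCs, 3 were called by DESeq2 (1.18%) and by DESeq2 with the replicate block (0.955%), 4 by DESeq2 on the genes of the edgeR filter (4.37%) and by voom quality weights (2.11%), and 2 without a low-count filter (0.836%).

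The share of all genes at an unadjusted p below 0.05 moved too and stands in parentheses. The 8 genes between the fractions (12.5%) became 4 with DESeq2 (8.85%), 13 with the replicate block in edgeR (18%) and in DESeq2 (14.1%), 1 without both Selp_low replicates 2 and 3 (4.36%), and 5 to 8 with each library left out, with 5 without Selp_high replicate 1 (10.4%). The 8 of Selp_high paHSCs over yHSCs (7.59%) became 5 to 9 with each library left out, with 5 without yHSC replicate 2 (4.62%). The 10 of Selp_low paHSCs over yHSCs (11.3%) became 21 with voom quality weights (29.7%), 4 without both Selp_low replicates 2 and 3 (4.83%), and 5 to 16 with each library left out, with 5 without yHSC replicate 2 (6.1%) and 16 without yHSC replicate 1 (20.5%). The median log2 fold change over the 35 genes moved between -0.081 and 0.52 between the fractions with each library left out (0.52 without Selp_low replicate 3) and between 0.132 and 0.367 in Selp_high paHSCs over yHSCs (0.367 without yHSC replicate 1). In Selp_low paHSCs over yHSCs it moved between -0.157 and 0.541 with each library left out (-0.157 without Selp_low replicate 3), to 0.033 with voom quality weights and to -0.142 without both Selp_low replicates 2 and 3. The cause was not tested. The fits without 2 Selp_low libraries leave 1 library, which is assumed to vary like the others. DESeq2 with the replicate block, DESeq2 on the genes of the edgeR filter and the fit without 2 libraries were chosen after seeing the data, as was the split by the heat map list. In the comparisons with yHSCs the block moved the edgeR counts at an unadjusted p below 0.05 among the 35 genes from 8 to 7 and from 10 to 8, and the 33 genes of the whole table called in Selp_high paHSCs over yHSCs to 0. With 3 against 3 libraries a difference has to be large beside the spread within groups to pass adjustment over all genes tested, and levels near 0 counts, such as those of *Sod3*, are not resolved.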

Other observations

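Libraries of similar depth did not hold counts for similar numbers of genes. These were 21094 in yHSC replicate 2, 21755 in Selp_high replicate 1, 25192 in Selp_high replicate 3 and 31236 to 34143 in the other libraries.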
